A study of Canis lupus familiaris with 25 samples.

Results

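The genes described here are 10 transcription factors known from luminal gland epithelium, namely the AP-2 factors TFAP2A, TFAP2B and TFAP2C, the GATA factors GATA3 and TRPS1, the forkhead factor FOXA1, and the ETS factors ELF3, ELF5, EHF and SPDEF. They were chosen by name, with earlier results of these data known, and all 10 were found among the 24532 genes of the table. Counts were compared between hepatoid gland adenoma (HGA, n = 10), a benign tumor of the modified sebaceous glands around the canine anus, primary apocrine gland anal sac adenocarcinoma (AGASAC, n = 11), a malignant tumor of the apocrine glands of the anal sac wall, and sublumbal lymph node metastases (n = 4) of the dogs that carried AGASAC 1 to 4. All samples were archival formalin-fixed, paraffin-embedded (FFPE) tumors of pet dogs that were excised for diagnosis, with no experimental treatment, and tissue next to the tumor had been trimmed away. HGA came from dogs aged 8 to 14 years, of which 2 were intact females, 3 neutered females, 4 intact males and 1 a neutered male. The dogs with AGASAC were 8 to 12.5 years old, and 2 were intact females, 3 neutered females and 6 neutered males, while the metastases came from dogs aged 8 to 10 years. Intact males were thus found in HGA alone, and tumor type and neuter status cannot be told apart for them.

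In gland epithelium, such factors divide the work of fixing and keeping a luminal secretory identity. AP-2 factors bind GC-rich sites in epidermal and glandular genes, GATA3 and FOXA1 open chromatin and act beside the estrogen receptor in mammary epithelium, and TRPS1 is an atypical GATA factor that mainly represses. ELF3, ELF5 and EHF belong to the epithelium-specific branch of the ETS family, and SPDEF, an ETS factor of another branch, drives the maturation of secretory cells such as goblet cells.

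Of the members, TFAP2B alone was on the set of extra hybridization probes that the study added to its commercial panel. The stretch of the canine TFAP2B transcript chosen for that probe is shown because it gives the identity of the AP-2 gene on which the results below turn. It spans positions 989 to 1088 of the transcript, and no letters are capitalized since no motif was searched. The 3′ counts reported here come from the end of the transcript and not from this stretch.
TFAP2B probe target: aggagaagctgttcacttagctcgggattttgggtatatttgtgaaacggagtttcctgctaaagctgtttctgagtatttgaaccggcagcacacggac

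QuantSeq 3′ sequencing yields about 1 fragment per transcript, near its 3′ end, so levels of different genes are set side by side without division by length. The study extended the 3′ ends of genes because annotated ends can be too short, and reads lost at such ends may still differ between genes. Orders of different genes and shares within a family carry this limit. Levels are given as CPM, the counts per 1000000 counts on genes, with library sizes scaled by the trimmed mean of M-values (TMM). Samples held 1562347 to 6389555 counts on genes, and a count of 0 allows up to 3 counts, or 0.539 to 1.88 CPM depending on the sample, for counting error only. Epithelial markers were counted in every sample, with a summed level of 6 genes from 993.7 CPM in HGA to 5224 CPM in AGASAC. The summed level of 4 simple epithelial keratins was 1.31 to 151.9 CPM in HGA and 1765 to 4121 CPM in AGASAC, and that of 6 stratified epithelial genes was 3175 to 13291 CPM in HGA and 1.33 to 35.8 CPM in AGASAC. Since these were bulk samples, fewer cells of a type and less RNA per cell cannot be told apart. HGA 10 stood apart from the other HGA before any comparison, as the only one in RNA extraction batch 9 and in the second of 2 series of sequencing file names (series B). It also had the highest summed level of 6 proliferation genes among HGA (244 CPM, next 171 CPM, median 22.3 CPM).

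GATA3 was the most abundant member in all 3 groups by median level. In HGA the order of medians ran from GATA3 (719.9 CPM) through TFAP2A (406 CPM), TFAP2C (349 CPM), TRPS1 (172 CPM) and TFAP2B (61.0 CPM) to ELF3 (3.98 CPM), ELF5 (2.72 CPM), EHF (1.83 CPM), and FOXA1 and SPDEF at 0. TFAP2A exceeded TFAP2C in 5 of 10 HGA, ELF3 exceeded ELF5 in 5 of 10 and ELF5 exceeded EHF in 5 of 10, so these neighbors were not separated. TRPS1 exceeded TFAP2B, and TFAP2B exceeded ELF3, in 10 of 10. In 10 of 10 HGA the lowest of the AP-2 and GATA factors was above the highest of the ETS factors and FOXA1, which was so in 0 of 11 AGASAC.

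In primary AGASAC the order was GATA3 (3624 CPM), TFAP2B (1506 CPM), TFAP2A (230.3 CPM), SPDEF (139 CPM), TRPS1 (123 CPM), EHF (43.0 CPM), TFAP2C (41.3 CPM), ELF3 (26.0 CPM), ELF5 (16.1 CPM) and FOXA1 (9.35 CPM). GATA3 exceeded TFAP2B and TFAP2B exceeded TFAP2A in 11 of 11 tumors. Below these, neighbors changed places between tumors, with TFAP2A above SPDEF in 9 of 11, SPDEF above TRPS1 in 6 of 11 and ELF5 above FOXA1 in 5 of 11. SPDEF, which was last in HGA, thus stood above 6 other members in AGASAC.

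**Figure D1:**
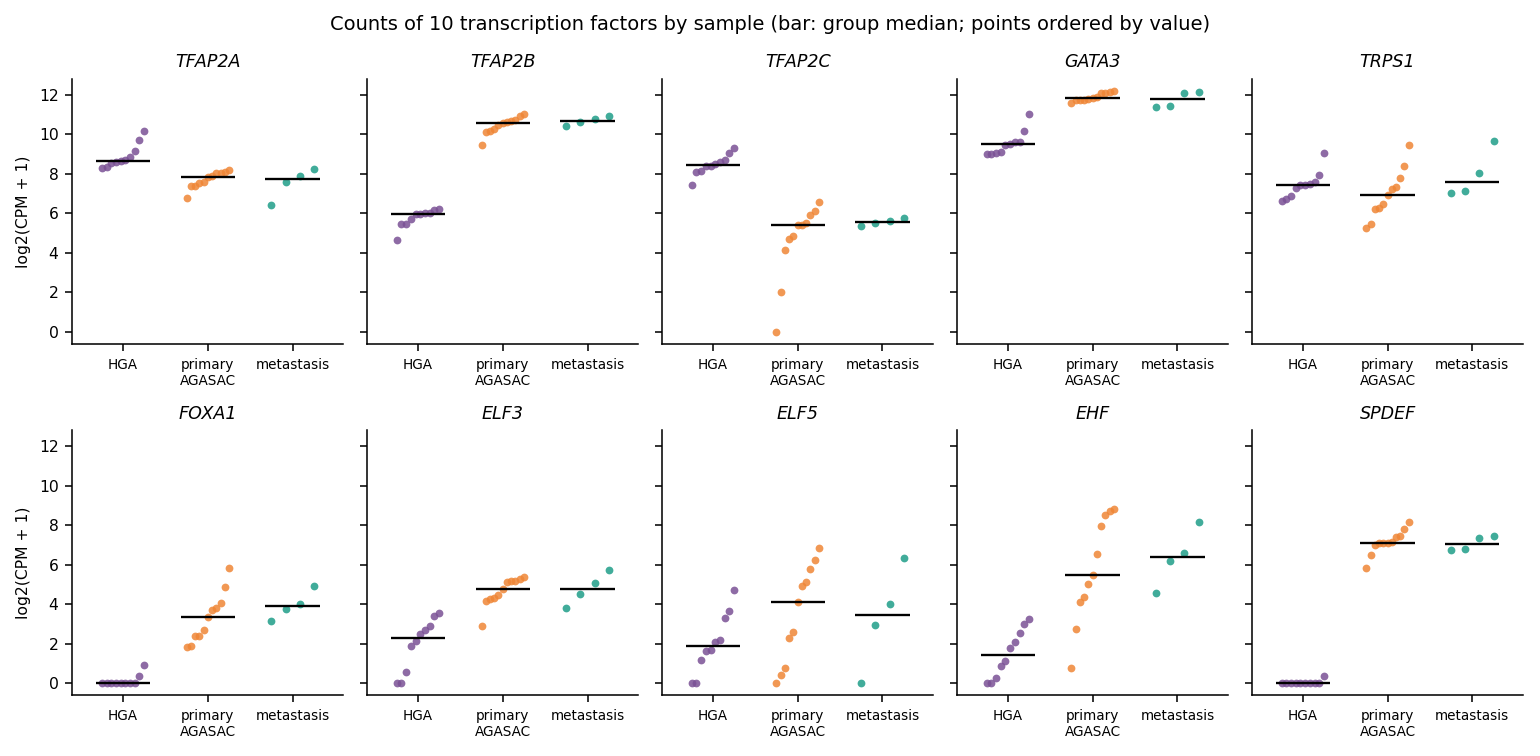
Level of each of the 10 factors as log2(CPM + 1) on the vertical axis, with a point per sample (10 HGA, 11 primary AGASAC, 4 metastases) and a bar at the group median. The points of HGA and primary AGASAC did not overlap for TFAP2A, TFAP2B, TFAP2C, GATA3, FOXA1 and SPDEF, and overlapped for TRPS1, ELF3, ELF5 and EHF.

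The comparison of HGA with primary AGASAC asked which genes differ between 2 tumors that arise next to each other from different glands. TFAP2B, GATA3, ELF3, EHF and SPDEF were lower in HGA, TFAP2A and TFAP2C were higher in HGA, and TRPS1 and ELF5 did not pass the test. FOXA1 was too low in counts to enter it. The test was edgeR's quasi-likelihood test, and a call needed an adjusted p (Benjamini-Yekutieli) no higher than 0.05 together with a log2 fold change (log2FC), HGA over AGASAC, of 1 or more in either direction. Of all 12070 genes tested, 25.1% were called, 12.6% higher and 12.5% lower in HGA, beside 7 of the 9 members that passed the filter on low counts, 2 higher and 5 lower. SPDEF was near 0 in HGA and passed that filter through its counts in AGASAC. EHF and ELF3 were low in HGA and also needed their AGASAC counts to pass, and TFAP2C needed its HGA counts. The count of members and the calls of these genes are therefore a description. The members were also chosen with earlier results of these data known, so their share without overlap is a description too. The CPM of HGA and AGASAC did not overlap in 9.24% of the genes tested and in 5 of the 9 members.

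TFAP2B, an AP-2 factor known from neural crest and limb development and from mammary luminal epithelium, was among the genes with the lowest p of the whole comparison. In HGA its level was 24.5 CPM at the lowest, 61.0 CPM at the median and 73.6 CPM at the highest. In AGASAC it was 711 CPM, 1506 CPM and 2107 CPM. Every AGASAC was above every HGA, and the spread was similar in relative terms, with a coefficient of variation of 27.5% in HGA and 27.2% in AGASAC. The log2FC of TFAP2B was −4.71 (SE 0.231, edgeR adjusted p = 1.55e-12), which ranked 14 of all genes by p.

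TFAP2C, which marks the trophectoderm and is needed for luminal breast cancer cells to keep their hormone receptor programme, took the opposite direction. HGA ranged from 173 CPM to 634 CPM with a median of 349 CPM. AGASAC ranged from 0 in AGASAC 9 to 93.5 CPM in AGASAC 5 with a median of 41.3 CPM, so that the groups did not overlap. The log2FC was 3.29 (SE 0.517, edgeR adjusted p = 1.43e-04). TFAP2A, the AP-2 factor of surface ectoderm and epidermis, ranged from 309.6 CPM to 1142 CPM in HGA (median 406 CPM) and from 109 CPM to 289.6 CPM in AGASAC (median 230.3 CPM). These groups did not overlap either, but lay close to each other, and the log2FC was 1.28 (SE 0.232, edgeR adjusted p = 7.9e-04). HGA 10 was the highest HGA for TFAP2A at 1142 CPM, and without it the log2FC was 1.08. Over 36 alternative fits the log2FC of TFAP2A ranged from 0.856 to 1.415, so that TFAP2A was not called in all of them.

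The division of AP-2 counts among the 3 genes differed between the tumor types, as a description of the same counts. TFAP2B made up 70.8% to 92.3% of AP-2 counts in AGASAC and 2.39% to 10.2% in HGA. In HGA the counts were divided between TFAP2A, with 43.1% to 80.7%, and TFAP2C, with 16.9% to 50.0%. TFAP2A was the largest of the 3 in 5 HGA and TFAP2C in the other 5, while TFAP2B was the largest in 11 of 11 AGASAC and 4 of 4 metastases. The sum of the 3 genes was 718.7 to 1471 CPM in HGA and 1004 to 2397 CPM in AGASAC, so that the sums overlapped where the shares did not.

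**Figure D2:**
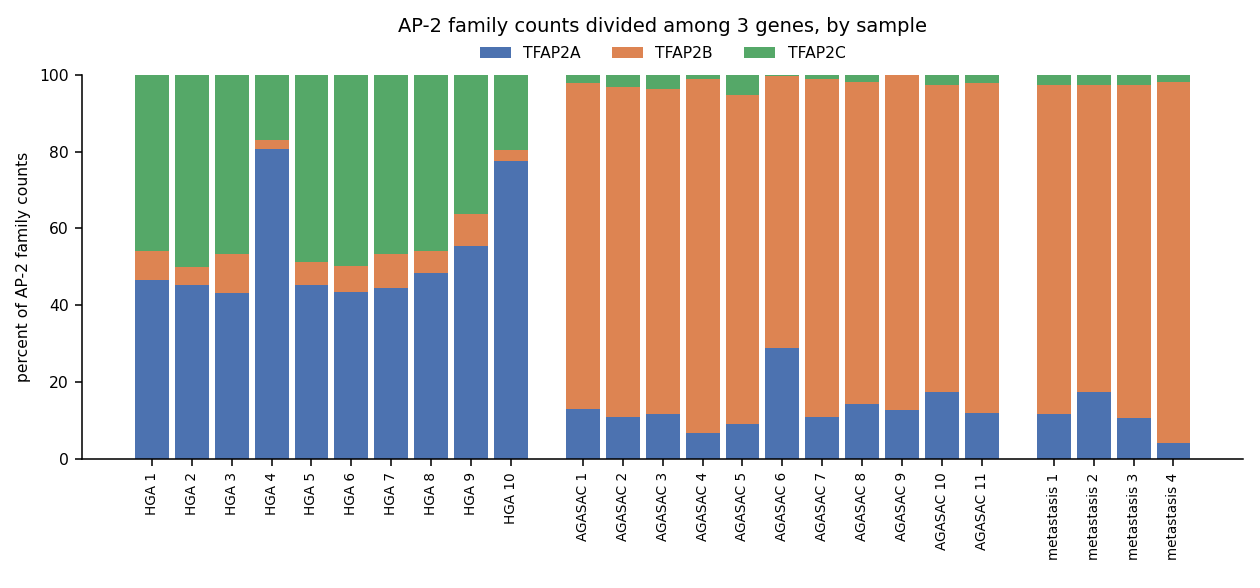
Percent of the summed AP-2 counts of each sample that fell on TFAP2A, TFAP2B and TFAP2C, with a stacked bar per sample that starts at 0 and ends at 100. TFAP2B took at least 70.8% in every AGASAC and at most 10.2% in every HGA, and HGA 4 and HGA 10 had the largest shares of TFAP2A.

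GATA3, a GATA factor of luminal mammary cells, urothelium, hair follicle and T cells, was lower in HGA. Its level was 507 CPM at the lowest, 719.9 CPM at the median and 2078 CPM at the highest in HGA, and 3136 CPM, 3624 CPM and 4709 CPM in AGASAC. The groups did not overlap, and AGASAC varied least of the groups, with a coefficient of variation of 14.1%. The log2FC was −2.21 (SE 0.239, edgeR adjusted p = 7.21e-07). The highest HGA value was that of HGA 10, the next lower was 1158 CPM, and without HGA 10 the log2FC was −2.47. The summed level of 6 T cell markers was 0.627 to 48.3 CPM in HGA and 13.1 to 101.8 CPM in AGASAC, and its part in the GATA3 difference was not tested.

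TRPS1, a zinc finger repressor that is retained in most breast carcinomas, ranged from 99.3 CPM to 537 CPM in HGA (median 172 CPM) and from 37.5 CPM to 698 CPM in AGASAC (median 123 CPM). AGASAC reached both below and above all HGA. The log2FC was 0.12 (SE 0.433, edgeR adjusted p = 1), and it was −0.19 without HGA 10. Within AGASAC the values divided by the series of sequencing file names. The 3 AGASAC of series A had 224 to 698 CPM and the 7 of series B had 37.5 to 159.8 CPM. Among the tumors of series A alone, with 9 HGA and 3 AGASAC, TRPS1 was lower in HGA with a log2FC of −1.40 (SE 0.311, edgeR adjusted p = 0.0301), and with the series as a covariate the log2FC was −0.02 (edgeR adjusted p = 1). The AGASAC of series A were those of dogs 1 to 3, from which metastases were sampled. AGASAC 4, whose dog also gave a metastasis and which has no series, had 72.4 CPM, and the 4 metastases, all of series A, had 131.6 to 800.9 CPM.

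FOXA1, a pioneer factor that lets nuclear receptors reach their sites, had 0 counts in 8 of 10 HGA, 1 count in HGA 7 and 2 counts in HGA 10. All 11 AGASAC had FOXA1 counts, from 8 to 162, which was 2.63 CPM at the lowest, 9.35 CPM at the median and 55.7 CPM at the highest. Every AGASAC was above every HGA. Over the groups, the counts per effective library were 126-fold higher in AGASAC, with an exact 95% counting interval of 43.0 to 615. Such an interval, here and below, holds counting error of the pooled counts only and not the variation between tumors. The filter kept FOXA1 out of the test, and a fit of the 24332 genes with at least 1 count gave a log2FC of −6.56 (SE 0.807, edgeR adjusted p = 5.16e-06). A permutation test of the mean log2(CPM + 1), two-sided with 100000 resamples, gave p = 2e-05 for a mean of 0.13 in HGA and 3.36 in AGASAC. Both p-values rest on the near absence of FOXA1 counts in HGA and are a description.

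SPDEF had 1 count in HGA 7 and none in the other HGA, against 203 to 875 counts in each AGASAC. On the CPM scale AGASAC ranged from 56.1 CPM to 282 CPM with a median of 139 CPM. SPDEF was the member with the widest gap between the groups. The counts were 4182-fold higher in AGASAC with an exact 95% counting interval of 750.3 to 165210, and without HGA 7, where 0 counts were left, they were at least 1230-fold higher against a floor of 3 counts over the group. The fit of SPDEF, which entered through AGASAC alone, gave an edgeR adjusted p of 4.09e-14, and its log2FC of −10.95 (SE 0.436) depends on the prior count of the fit.

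ELF3, an ETS factor of simple and transitional epithelium that is also induced by inflammatory signals, was low in both tumors. HGA ranged from 0 in HGA 4 and HGA 10 to 10.6 CPM, with a median of 3.98 CPM. AGASAC ranged from 6.50 CPM in AGASAC 2 to 40.2 CPM in AGASAC 5, with a median of 26.0 CPM. The groups overlapped, since 7 of 10 HGA were below every AGASAC and no HGA reached the AGASAC median. The log2FC was −2.53 (SE 0.498, edgeR adjusted p = 0.00198), and it did not pass with the file naming series as a covariate (log2FC −2.12, edgeR adjusted p = 0.253) or within series A (log2FC −1.53, edgeR adjusted p = 1).

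EHF, an ETS factor of ducts and of stratified and glandular epithelium, varied most inside AGASAC in relative terms among the 8 members counted in every AGASAC, with the highest level 654-fold above the lowest. In HGA it ranged from 0 to 8.63 CPM with a median of 1.83 CPM. AGASAC 7 had 2 counts (0.695 CPM), the median was 43.0 CPM, and AGASAC 5, 8 and 11 had 454 CPM, 367 CPM and 428 CPM. AGASAC 7 and AGASAC 9 (5.76 CPM) lay inside the range of HGA, and the other 9 AGASAC were above it. The log2FC was −5.69 (SE 0.970, edgeR adjusted p = 3.8e-04), and −3.90 with the file naming series as a covariate (edgeR adjusted p = 0.111).

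ELF5, the ETS factor of the mammary alveolar and luminal progenitor state, varied widely in AGASAC, with a coefficient of variation of 123% beside 117.7% for EHF, and was not called. HGA ranged from 0 to 25.9 CPM, with a median of 2.72 CPM and HGA 2 as the highest. AGASAC ranged from 0 in AGASAC 9 to 114.7 CPM in AGASAC 8, with a median of 16.1 CPM, and 5 of 11 AGASAC were above every HGA while the other 6 lay within the range of HGA. The log2FC was −2.39 (SE 0.898, edgeR adjusted p = 0.32), which passed only where the adjustment was Benjamini-Hochberg (edgeR adjusted p = 0.032).

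Summed levels of some markers of other cells also differed in range between the tumor types, but few of these genes were called. Of blood vessel markers 1 of 4 tested was called (CDH5), beside 25.1% of all genes tested. Of 6 fibroblast, 5 macrophage and 4 smooth muscle markers tested, 0 were called. Of skeletal muscle genes only ACTA1 entered the test, and it was called lower in HGA. The summed level of 6 skeletal muscle genes was 4.32 to 827 CPM in AGASAC, highest in AGASAC 5, and 1.73 to 20.2 CPM in HGA. In the metastases it was 0.319 to 1.59 CPM, with MYH2, CKM, TNNT3 and MYL1 at 0. Blood vessel markers had a summed level of 196 to 547 CPM in HGA and 48.5 to 227 CPM in AGASAC. The part of skeletal muscle and of blood vessels in the differences of the members was not tested.

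**Figure D3:**
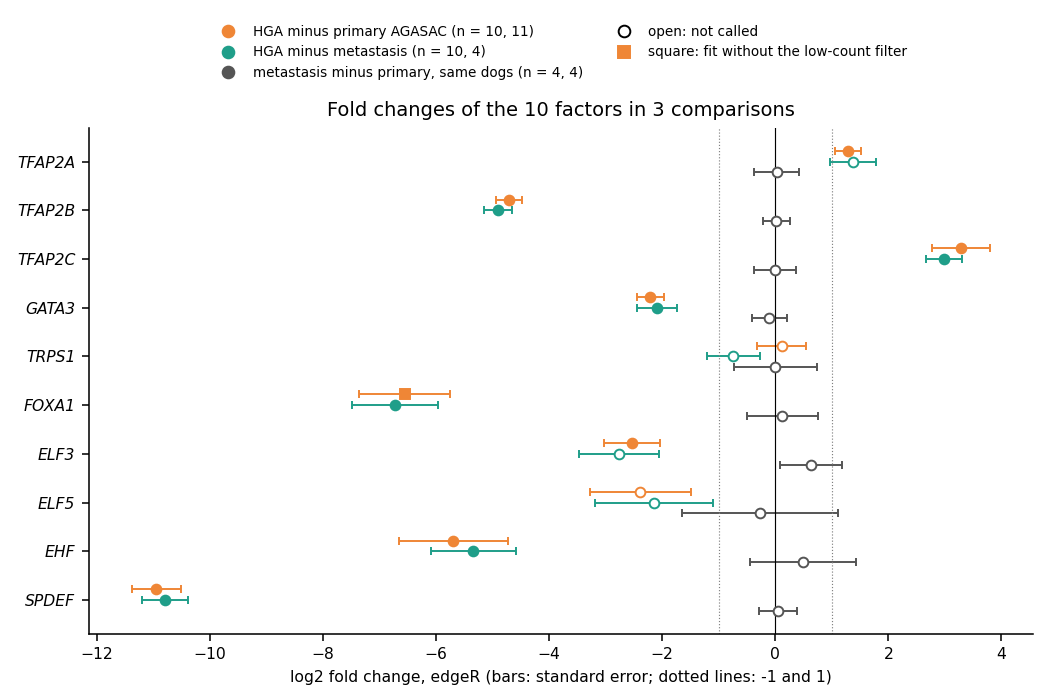
Log2 fold change of each factor on the horizontal axis with its standard error, for HGA over primary AGASAC, HGA over metastasis, and metastasis over the primary tumor of the same dogs. Filled points were called and open points were not, the square is FOXA1 from the fit without a filter, and the points of the third comparison lie between −0.27 and 0.64.

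Genes that work with the members were read from lists by role. A list of genes known as targets or partners in luminal cells, which holds the 4 simple keratins too, was written with earlier results of these data known. As a description, 10 of 15 tested were lower in HGA and 2 were higher, beside 12.5% and 12.6% of all genes tested. The median log2FC of the list was −3.36, beside −0.03 over all genes tested. Those with the largest falls were PIP, an apocrine secretory protein, with 0 to 1.25 CPM in HGA and 880 to 5941 CPM in AGASAC (edgeR adjusted p = 1.84e-12), and the simple keratins KRT8, with at most 0.462 CPM in HGA and 225 to 753 CPM in AGASAC (edgeR adjusted p = 1.09e-15), and KRT19, with at most 1.65 CPM in HGA and 712 to 2156 CPM in AGASAC (edgeR adjusted p = 1.07e-13). Among those higher in HGA was ESR1, the estrogen receptor, beside which FOXA1 and GATA3 are known to act. ESR1 ranged from 86.4 to 253 CPM in HGA and from 0.288 to 27.8 CPM in AGASAC (log2FC 3.98, SE 0.521, edgeR adjusted p = 1.18e-05). ESR1 did not overlap between the tumor types.

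Cofactors of the members were called in 4 of 13 tested, all higher in HGA, with a median log2FC of 0.21, and the share called was near the 25.1% of all genes tested. CITED1, of the CITED family of coactivators that link AP-2 factors to CBP and p300, ranged from 16.2 to 67.7 CPM in HGA and from 0 to 24.7 CPM in AGASAC (log2FC 3.38, SE 0.719, edgeR adjusted p = 0.00449). WWOX, which binds TFAP2C and keeps it in the cytoplasm, was higher in HGA with a log2FC of 1.54 (SE 0.262, edgeR adjusted p = 3.74e-04), and LDB1, a scaffold of LIM and GATA complexes, ranged from 14.3 to 42.6 CPM in HGA and from 6.08 to 23.3 CPM in AGASAC (edgeR adjusted p = 0.0178). The other cofactor called was the corepressor TLE3.

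Of the relatives of the members from the same families, 6 of 13 in the table passed the filter and 2 were called, both lower in HGA, too few to set apart from the 25.1% of all genes tested. These were ETS2 (log2FC −1.07, SE 0.269, edgeR adjusted p = 0.0215) and ETV6 (log2FC −1.13, SE 0.312, edgeR adjusted p = 0.0465), broadly expressed ETS factors. Relatives that the filter left out could differ too, as a description. FOXA3 and GATA5 were at 0 in every HGA, with 0 to 91.0 CPM (median 20.2 CPM) and 0 to 71.5 CPM (median 18.2 CPM) in AGASAC. FOXA2 was at 0 in every AGASAC, with 0 to 55.9 CPM in HGA (median 7.26 CPM). Of the other epithelial factors, 4 of 10 tested were higher in HGA and 1 was lower, beside 12.6% and 12.5% of all genes tested. This list was written with earlier results of these data known, so that its count is a description. The squamous and basal regulator TP63 ranged from 161 to 540.5 CPM in HGA and from 0 to 6.88 CPM in AGASAC (log2FC 7.01, SE 0.524, edgeR adjusted p = 2.24e-09). ZNF750, a driver of late epidermal differentiation, ranged from 29.5 to 125 CPM in HGA and from 0 to 4.22 CPM in AGASAC (edgeR adjusted p = 1.87e-07), and SOX9 of follicle and sebaceous progenitors from 14.8 to 98.5 CPM and from 0 to 22.5 CPM (log2FC 3.48, SE 0.592, edgeR adjusted p = 3.76e-04). OVOL2, a keeper of epithelial identity, was the one lower in HGA (log2FC −1.35, SE 0.293, edgeR adjusted p = 0.00547).

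Inside a tumor type, the members were compared with each other over the 36 pairs of the 9 that passed the filter, 72 relations in all. No pair passed at a Benjamini-Hochberg adjusted permutation p of 0.05 for Pearson's r, where the lowest adjusted p was 0.256, while 6 pairs in HGA and 3 in AGASAC had an unadjusted p under 0.05. By Spearman's rho 1 pair passed, TRPS1 with ELF3 in AGASAC. Tumors with high TRPS1 had low ELF3, with rho of −0.89 (permutation p = 5.3e-04, adjusted p = 0.0382) and r of −0.68 (permutation p = 0.0187, adjusted p = 0.256), and r was −0.76 without the 2 tumors farthest from the TRPS1 median. The 7 AGASAC of file naming series B, part of the tumors in which the pair was picked, are no separate test. Among them r was −0.86 (unadjusted permutation p = 0.0194) and rho −0.89 (unadjusted permutation p = 0.0127). Series A held 3 tumors, too few for a value.

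EHF and ELF5 lie next to each other in the dog gene table, with 0 genes between them, and did not pass as a pair in AGASAC, with r of 0.69 (permutation p = 0.0207, adjusted p = 0.256) and rho of 0.72 (permutation p = 0.016, adjusted p = 0.481). The r was 0.60 without the 2 tumors farthest from the ELF5 median, and 0.69 within series B (permutation p = 0.0938). AGASAC 5 had 454 CPM of EHF and 5.16 CPM of ELF5. TFAP2A and SPDEF had r of 0.70 in AGASAC (permutation p = 0.0189, adjusted p = 0.256) and rho of 0.44 (permutation p = 0.184, adjusted p = 0.795), and the relation rested on few tumors, since r was 0.11 without the 2 farthest and 0.34 within series B (permutation p = 0.444).

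In HGA the 3 pairs with the lowest p were TFAP2A with ELF3, GATA3 with TRPS1, and TFAP2B with ELF3. TFAP2A and ELF3 had r of −0.77 (permutation p = 0.0101, adjusted p = 0.256) and rho of −0.36 (permutation p = 0.2998, adjusted p = 0.795), with r of −0.29 without the 2 farthest HGA and −0.67 within series A (permutation p = 0.0477). GATA3 and TRPS1 had r of 0.80 (permutation p = 0.0144, adjusted p = 0.256) and rho of 0.58 (permutation p = 0.0875, adjusted p = 0.7004), which fell to r of 0.30 without the 2 farthest and to 0.40 within series A, that is without HGA 10 (permutation p = 0.27976). TFAP2B and ELF3 had r of 0.68 (permutation p = 0.0213, adjusted p = 0.256) and rho of 0.71 (permutation p = 0.0272, adjusted p = 0.481), with r of 0.24 without the 2 farthest and 0.67 within series A (permutation p = 0.0429).

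**Figure D4:**
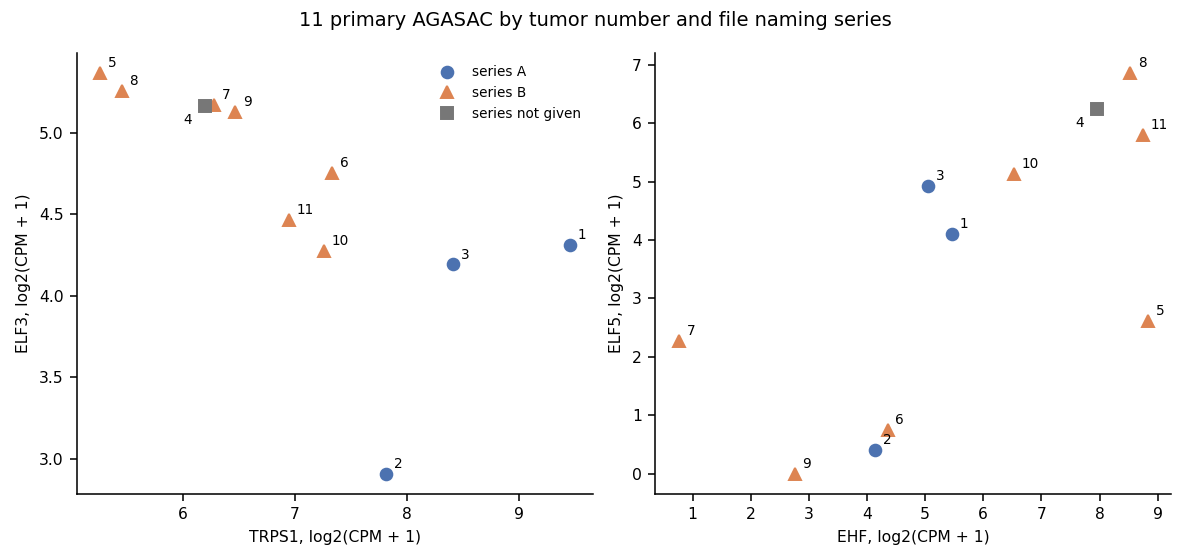
Levels of TRPS1 against ELF3 (left) and of EHF against ELF5 (right) as log2(CPM + 1) in the 11 primary AGASAC, each point labelled with its tumor number and marked by the series of its sequencing file name. TRPS1 was at least 224 CPM in the 3 tumors of series A and at most 159.8 CPM in the 7 of series B, and ELF5 was low in AGASAC 5 although EHF was at its highest there.

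The genes whose deviations from the tumor type mean were most like those of a member, over 21 primary tumors and 10804 genes with a symbol, are given as a description. TFAP2A was most like IRX5 (r = 0.84) and EXT1 (r = 0.82), TFAP2B most like UGGT1 (r = 0.79) and C25H4orf27 (r = 0.79), and TFAP2C most like RAB6A (r = 0.82) and SRD5A3 (r = 0.80). GATA3 was most like LUC7L3 (r = 0.88) and SETD2 (r = 0.87), and TRPS1 most like SEMA3F (r = 0.75) and BCCIP (r = 0.74). ELF3 was most like RILP (r = 0.88) and LANCL3 (r = 0.81), and SPDEF most like ANKRD50 (r = 0.76) and QRFPR (r = 0.67). ELF5 and EHF shared CRYM as the most like gene (r = 0.83 and r = 0.75), followed by SNRPA1 for ELF5 (r = 0.81) and CLN6 for EHF (r = 0.73). The points of each such r share library, depth and file naming series.

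The metastases were set beside the primary tumors of the same 4 dogs to see whether the members keep their level in the lymph node. No member was called. TFAP2B had 1714, 1919, 1403 and 1506 CPM in the primary tumors of dogs 1 to 4 and 1742, 1384, 1560 and 1927 CPM in their metastases, with a log2FC of 0.02 (SE 0.241, edgeR adjusted p = 1). GATA3 had 3844, 4422, 3624 and 3469.7 CPM in the primary tumors and 4456, 2653, 4414 and 2785 CPM in the metastases (log2FC −0.10, SE 0.304, edgeR adjusted p = 1). SPDEF had 168, 173, 137 and 56.1 CPM against 173, 109, 162 and 106 CPM (log2FC 0.05, SE 0.343, edgeR adjusted p = 1). The values of these 3 overlapped in part between primary tumor and metastasis, with GATA3 in metastases 2 and 4 below all 4 primary tumors and SPDEF in primary tumor 4 below all metastases.

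EHF was the member that was higher in the metastasis of 4 of 4 dogs, with 43.0, 16.6, 32.2 and 247 CPM in the primary tumors and 95.1, 22.9, 73.3 and 288 CPM in the metastases. The differences within dogs were 0.22 to 1.16 on the log2(CPM + 1) scale, with a mean of 0.74 ± 0.48 (SD, n = 4). The log2FC was 0.49 (SE 0.938, edgeR adjusted p = 1), and 0.76 with the dog as a block (SE 0.209, edgeR adjusted p = 1), so that EHF did not pass in either fit. ELF3 had the largest log2FC at 0.64 (SE 0.549, edgeR adjusted p = 1) and was higher in 3 of 4, and ELF5 the lowest at −0.27 (SE 1.38, edgeR adjusted p = 1) and was higher in 1 of 4. In the edgeR fit without the dog, 0% of 12629 genes were called and 145 had an unadjusted p under 0.05, none of them a member. That fit leaves out that samples of the same dog deviated together. With the dog as a block, edgeR called 1 gene and 491 genes had an unadjusted p under 0.05. DESeq2 called 5 genes. No member was called in any of these fits, and unadjusted p-values of members in the block fit are not given here. Of the T cell markers, 5 of 6 were tested in the matched dogs with a median log2FC of 0.56. CD3E (log2FC 1.18, SE 0.359, edgeR adjusted p = 1) and CD3G (log2FC 1.47, SE 0.4203, edgeR adjusted p = 1) were not called. Both were among the genes with an unadjusted p under 0.05 in the fit without the dog. Summed levels in the nodes were 36.4 to 54.6 CPM for 6 T cell genes and 23.7 to 41.2 CPM for 6 B cell genes, against 13.1 to 101.8 CPM and 14.6 to 43.4 CPM in all 11 primary AGASAC.

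**Figure D5:**
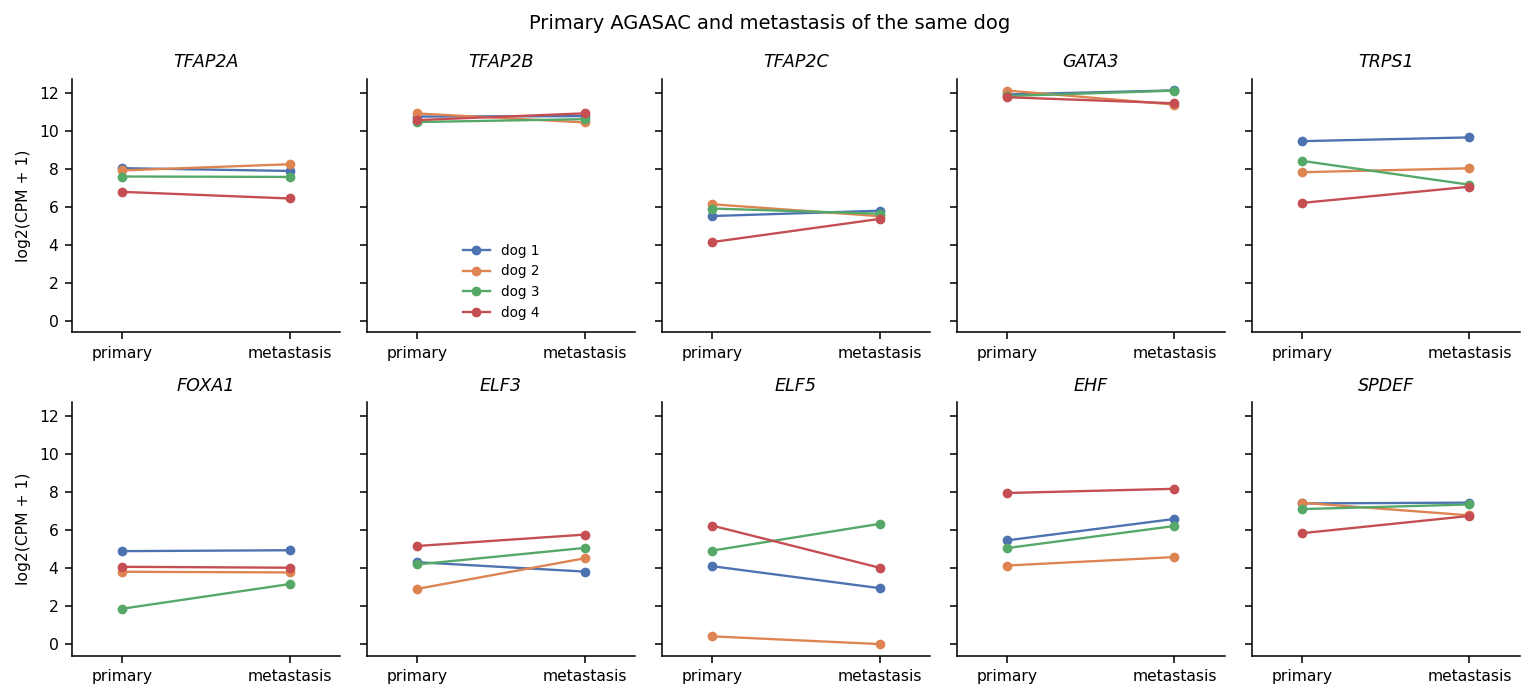
Level of each factor as log2(CPM + 1) in the primary AGASAC and the metastasis of dogs 1 to 4, with a line per dog. The EHF lines of 4 of 4 dogs rise from primary tumor to metastasis, and those of the other 9 factors rise in some dogs and fall in others.

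The metastases were also compared with the same 10 HGA, so this comparison shares its HGA with the first and its values are set beside those above. Of 13195 genes tested, 16.1% were called, 8.4% higher and 7.69% lower in HGA, and 16.2% did not overlap between the groups. All 10 members passed the filter, FOXA1, SPDEF and EHF through their counts in the metastases, so that the counts of members are again a description. Of them 6 were called, 1 higher and 5 lower in HGA, and 8 did not overlap. SPDEF had 106 to 173 CPM in the metastases and at most 0.303 CPM in HGA, which was 3813-fold higher in the counts (exact 95% counting interval 683 to 150680, edgeR adjusted p = 3.49e-10). FOXA1, with 3 counts over all HGA, had 7.94 to 29.7 CPM in the metastases and at most 0.873 CPM in HGA (151-fold by counts, exact 95% counting interval 51.0 to 739, edgeR adjusted p = 6.39e-05). Both factors that were near 0 in HGA were thus counted in every AGASAC sample, primary or metastatic.

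TFAP2B had 1384 to 1927 CPM in the metastases against at most 73.6 CPM in HGA, with a log2FC of −4.90 (SE 0.243, edgeR adjusted p = 9.42e-09). GATA3 had a log2FC of −2.10 (SE 0.355, edgeR adjusted p = 0.00286), EHF of −5.34 (SE 0.752, edgeR adjusted p = 5.38e-04) and TFAP2C, with 40.0 to 54.2 CPM in the metastases, of 2.99 (SE 0.322, edgeR adjusted p = 3.65e-05). TFAP2A was at 85.3 to 300.2 CPM in the metastases, below every HGA, but did not pass, with a log2FC of 1.37 (SE 0.4096, edgeR adjusted p = 0.169). ELF3, with 13.1 to 53.3 CPM in the metastases, also lay apart from HGA and did not pass, with a log2FC of −2.76 (SE 0.699, edgeR adjusted p = 0.0618), although it did once HGA 4 (edgeR adjusted p = 0.0492) or HGA 10 (edgeR adjusted p = 0.0355) was left out. ELF5 (log2FC −2.15, SE 1.04, edgeR adjusted p = 1) and TRPS1 (log2FC −0.74, SE 0.472, edgeR adjusted p = 1) overlapped with HGA.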

How the data were processed

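The authors trimmed QuantSeq 3′ reads with Cutadapt, aligned them to CanFam3.1 with STAR and counted them on genes by featureCounts in 2 rounds, the second with extended 3′ ends. Tool versions are not given in the sources used here. Reads with several locations were shared evenly among them, which can blur genes with close copies. The deposited counts are whole and not normalized. The authors also deposited a signal (counts over size factors) and the log2 fold change, standard error, p-value and adjusted p-value of their own comparison, none of which was used, and 0 columns of samples were left out.

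Counts were tested in R 4.3.3 with edgeR 4.0.16 (filterByExpr, minimum count 10, minimum total 15, TMM, no covariate) and adjusted over all genes tested, in 21 primary tumors, 8 samples of 4 dogs, or 14 samples. The standard error was taken from the log2FC and the F statistic, without shrinkage. Values of single samples carry TMM factors of all 25 samples. Permutations numbered 100000, in Python 3.11.15. The steps were tested on simulated data. Samples of the same dog deviated together (r across genes of 0.43 to 0.73 in 4 of 4 dogs), and 0 pairs of samples agreed within sampling noise. Extraction batches and file naming series come from the study's sample tables. Alternatives were DESeq2 1.42.0, other scalings, filters, adjustments, covariates, batches and left-out samples. Named are all members, up to 3 rises and falls of each list, the 2 genes most like a member and the 3 pairs with the lowest p per tumor type. Some relatives and cell markers are named besides, for their levels or calls. The members and lists were chosen with earlier results of these data known. No coordinates are given, since the gene table used for neighbors has another assembly, UU_Cfam_GSD_1.0. One gene of the list of luminal targets and partners, which is in its counts, is not reported here.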

Additional observations from a re-analysis of the deposited data

Results flagged for a closer look

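Outlying samples were looked for with Dixon's criterion in the HGA and the metastases, 20 groups of values in all. Of these 5 were marked, while chance marks about 1 in 20 if the values are normally distributed. For FOXA1 and SPDEF in HGA most values were 0, so that 1 or 2 counts sufficed for a mark. HGA 10 was far above the other HGA for GATA3 (2078 CPM, next 1158 CPM), TRPS1 (537 CPM, next 241 CPM) and FOXA1 (0.873 CPM, which is 2 counts, next 0.303 CPM). HGA 2 was far above the others for ELF5 (25.9 CPM, next 11.5 CPM). HGA 7 was marked for SPDEF (0.303 CPM), which is 1 count beside 0 in the other HGA.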

How the results depend on the processing

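Members called in HGA versus primary AGASAC, 7 at first, were 3 with at least 10 counts required in every sample, which left 4 members in the test, 2 in extraction batch 5 alone, 4 in batch 6 alone and 2 in batch 8 alone, where 5 or 6 tumors entered the fit. They were 7 to 8 over the fits without 1 sample, as FOXA1 passed the filter once an HGA was left out. In HGA versus metastasis they were 3 with at least 10 counts in every sample and 6 to 7 without 1 sample, and in metastasis versus primary 0 throughout. Pairs of members that passed by Pearson's r stayed at 0 with other scalings and with a pseudocount of 0.1 CPM. Scaling by library size alone moved the median log2FC of all genes to −0.33 and the share of calls that were higher in HGA from 50.2% to 32.8%, and in HGA versus metastasis to −0.26 and from 52.2% to 36.3%. TRPS1 in HGA versus primary AGASAC turned to −0.12 with library size alone, −0.16 with all 15 AGASAC samples, −0.79 in batch 8, −1.40 in series A and −0.023 with the series as a covariate, and ranged from −0.19 to 0.58 without 1 sample. In HGA versus metastasis it ranged from −1.07 to 0.14, the latter without metastasis 1. The cause was not tested.

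Between metastasis and primary, where no value of a member passed, signs turned for TRPS1 with RLE (0.0021), with at least 10 counts (0.0003) and with DV200 (0.16), for TFAP2A (−0.094) and TFAP2C (0.0061) with DV200, and against all 11 primary AGASAC for TFAP2A (−0.088), TFAP2C (0.29), TRPS1 (0.86), EHF (−0.38) and SPDEF (−0.14). Without 1 sample or dog the log2FC ranged from −0.25 to 0.28 for TFAP2A, −0.10 to 0.17 for TFAP2B, −0.29 to 0.24 for TFAP2C, −0.25 to 0.081 for GATA3, −0.89 to 0.65 for TRPS1, −0.32 to 0.63 for FOXA1, −2.08 to 0.91 for ELF5, −0.44 to 1.98 for EHF and −0.20 to 0.28 for SPDEF. With the dog as a replicate block the log2FC was −0.0445 for TFAP2A, 0.13 for TFAP2C and 0.014 for TRPS1, and the block changed no call of a member. A replicate block of the label numbers, which name different dogs in HGA and AGASAC, left 7 members called in the first comparison and 4 in the third, where FOXA1 (edgeR adjusted p = 0.14) and EHF (edgeR adjusted p = 0.137) did not pass. Deviations of samples with the same number had correlations of −0.05 to 0.04 between HGA and primary AGASAC.

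Counts limit what can be said of SPDEF, FOXA1, ELF3, ELF5 and EHF in HGA, where 1 to 157 counts were summed over 10 tumors. The 4 metastases limit the comparisons that hold them. DESeq2 called 8 members in both comparisons with HGA. Only 3 extraction batches and series A gave values within a batch.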
